A study of Mus musculus with 6 samples.

Results

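The interleukin-12, interleukin-27 and interleukin-15 axes were followed through 10 genes, taken by name from the 57010 genes of the count table: the ligand genes Il12a, Il12b, Il23a, Il27, Ebi3 and Il15 and the receptor genes Il12rb1, Il12rb2, Il27ra and Il15ra. RNA came from cells of mouse hearts sorted by 2 surface antigens: CD45, carried by leukocytes, had to be present and CD90.2, the Thy1 product found on T cells, had to be absent. The labels accordingly call the cells immune cells without T cells. All mice carried the genotype labelled Ova DTG, with expression of ovalbumin restricted to the heart, and all had received OTI cells, which are CD8 T cells specific for ovalbumin, so both groups lack a mouse without transferred T cells. The 3 libraries labelled OTI + ICI came from mice given immune checkpoint inhibitors, which were anti-CTLA-4 and anti-PD-1 antibodies at 200 µg each by the intraperitoneal route. The 3 libraries labelled OTI + Isotype came from mice given isotype control antibody, of unstated dose, and their titles name myocarditis as those of the ICI group do. The time of sampling, the age of the mice, the promoter behind the ovalbumin transgene and whether a library held 1 heart or several are also not stated in the sources used here, and the labels name 1 batch date for all 6 libraries. The comparison asks how these genes differed between the groups.

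Interleukin-12 (IL-12) and its relatives are heterodimers made mostly by macrophages and dendritic cells. Il12a encodes the p35 chain and Il12b the p40 chain of IL-12, Il23a encodes the p19 chain that pairs with p40 to form IL-23, Il27 encodes the p28 chain that pairs with the Ebi3 product to form IL-27, and p35 with EBI3 forms IL-35. IL-12 drives interferon gamma production by T and natural killer (NK) cells through a receptor of the Il12rb1 and Il12rb2 chains, and IL-23 uses the Il12rb1 chain with Il23r. IL-27 signals through the Il27ra chain and gp130, encoded by Il6st. IL-15, which sustains NK cells and memory CD8 T cells, is held on the surface of myeloid cells by the Il15ra chain and presented to neighbours that carry the Il2rb and Il2rg chains.

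Total counts ran from 21528274 to 30736316 per library and were lower in all ICI libraries than in any isotype library. The gate held by its markers, since Ptprc, which encodes CD45, lay between 949 and 1423 CPM (counts scaled to a library total of 1000000) and Thy1 had 0 to 2 counts in each library. Replicate 3 of each group carried the female transcript Xist (2786 counts for ICI and 1844 for isotype), while replicates 1 and 2 carried at most 12 counts of it. Counts of Y-linked genes were 4879, 5821 and 6 in ICI replicates 1, 2 and 3. They were 3933, 3620 and 130 in isotype replicates 1, 2 and 3, so isotype replicate 3 held both Xist and some Y-linked counts. Of 14575 genes tested, 68.4% were called at an adjusted p under 0.05 (edgeR quasi-likelihood test, Benjamini-Hochberg over all genes tested), 34.7% higher and 33.7% lower in the ICI libraries. With upper-quartile factors or library totals alone the split was 6108 higher and 3808 lower, or 6212 and 3700, against 5056 and 4913 here, as the all-gene median of the log2 fold change was 0.21 and 0.23 under these scalings and 0.031 here. In bulk libraries, fewer cells of a type and less RNA per cell cannot be told apart.

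All 10 genes passed the filter on low counts. Libraries labelled ICI held more Il12b, Il15 and Il27ra and less Il12rb1, Il12rb2, Il15ra, Il27 and Il23a, while Il12a and Ebi3 were not called. The 8 called genes of 10 stand beside 68.4% of all genes tested, a share near the background. For 8 genes no CPM value of one group fell within the range of the other, and 73.5% of all genes tested behaved this way. Against a change of 1.5-fold, 6 of the 10 passed (Il12b, Il15, Il27ra, Il12rb1, Il15ra and Il27) and 37.5% of all genes tested did. The median log2 fold change was -0.35 over the 10 genes and 0.031 over all genes tested.

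**Figure D1:**
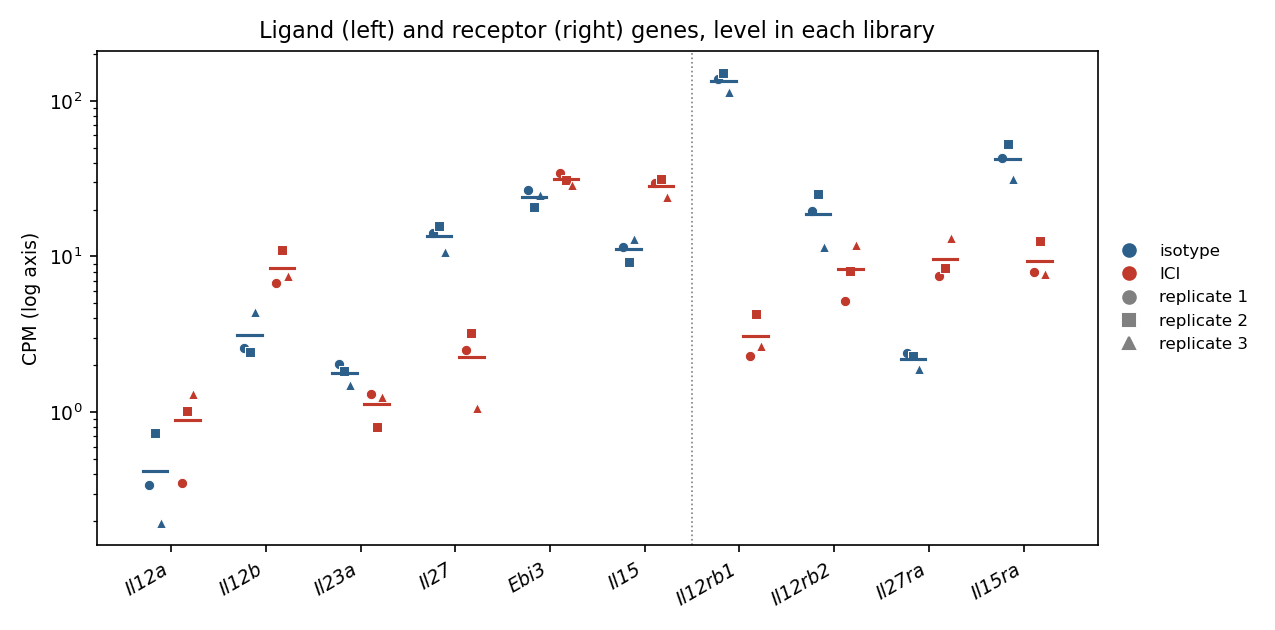
Level of each gene in every library, in CPM on a log axis, for 6 ligand genes (left of the dotted line) and 4 receptor genes (right). Blue marks isotype and red ICI, the marker shape gives the replicate and the bar the mean of 3 libraries. Il12rb1 shows the widest gap between the groups, from 115 to 150 CPM in isotype libraries and from 2.28 to 4.30 CPM in ICI libraries.

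Among the ligand genes, Il27 fell and its partner Ebi3 was not called. Il27, the p28 chain, was at 2.50, 3.25 and 1.07 CPM in ICI replicates 1, 2 and 3 and at 14.1, 15.7 and 10.6 CPM in isotype replicates 1, 2 and 3. The highest ICI library lay below the lowest isotype library. Il27 fell 6.75-fold (log2 fold change -2.75, SE 0.37, edgeR adjusted p = 0.000307). In the annotation, 10.1% of the exon bases of Il27 also belong to exons of Apobr, a lipoprotein receptor gene that was 1.75-fold lower in the ICI libraries (44.3 ± 0.497 CPM against 67.4 ± 3.68 CPM, SD, n = 3 each). The libraries carry no strand, and the part of Apobr reads in the Il27 counts was not tested.

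Ebi3, the receptor-like chain shared by IL-27 and IL-35, was at 34.2, 31.0 and 28.8 CPM in ICI replicates 1, 2 and 3 and at 26.6, 20.8 and 24.99 CPM in isotype replicates 1, 2 and 3. On library totals the ICI libraries were all above the isotype libraries, by little. With TMM factors the log2 fold change was 0.18 (SE 0.12, 95% interval -0.093 to 0.45, edgeR adjusted p = 0.217). Ebi3 passed the threshold with upper-quartile factors (log2 fold change 0.36, adjusted p = 0.0232), with library totals alone (0.38, 0.0166) and with the transcript length trend removed (0.48, 0.00536), all in the edgeR test. Of its exon bases 23.4% also belong to Gm16712, a predicted gene at 6.70 ± 0.407 CPM in ICI libraries and 2.71 ± 0.458 CPM in isotype libraries.

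The p40 chain Il12b rose in the ICI libraries. It was at 6.80, 11.0 and 7.48 CPM in ICI replicates 1, 2 and 3 and at 2.57, 2.43 and 4.39 CPM in isotype replicates 1, 2 and 3. Isotype replicate 3 stood above the other isotype libraries and below every ICI library. Il12b rose 2.34-fold (log2 fold change 1.23, SE 0.27, with an edgeR adjusted p of 0.00265). The p35 chain Il12a, the other chain of IL-12, was scarce, with 8, 24 and 28 counts in ICI replicates 1, 2 and 3 and 10, 18 and 6 counts in isotype replicates 1, 2 and 3. The groups overlapped, and the log2 fold change was 0.89 (SE 0.58, 95% interval -0.41 to 2.19, edgeR adjusted p = 0.199). It was 0.18 in replicates 1 and 2 of each group only and 1.51 without isotype replicate 2, not called in either.

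The p19 chain Il23a was scarce as well, with 30, 19 and 27 counts in ICI replicates 1, 2 and 3 and 60, 45 and 46 counts in isotype replicates 1, 2 and 3. All ICI libraries lay below all isotype libraries. Il23a fell 1.83-fold (log2 fold change -0.87, SE 0.30, edgeR adjusted p = 0.0263). The call was lost with upper-quartile factors (edgeR adjusted p = 0.0654), with library totals alone (0.0750), without ICI replicate 2 (0.0912) and without isotype replicate 1 or 2 (0.0918 and 0.0576), as well as against a 1.5-fold change (0.162).

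Il15 rose. It was at 29.8, 31.4 and 24.2 CPM in ICI replicates 1, 2 and 3 and at 11.5, 9.17 and 12.98 CPM in isotype replicates 1, 2 and 3, so the lowest ICI library was above the highest isotype library. The rise was 2.21-fold (log2 fold change 1.14, SE 0.15, edgeR adjusted p = 9.94e-05).

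Promoter windows of 250 bases before to 50 bases after the start site were found in the RefSeq table (build GRCm38.p6, an older build than the GRCm39 of the counts) for 5 of the 10 genes, in 7 windows: Il12a, Il12b, Il12rb2, Ebi3 and Il15ra. Il12rb1, Il23a, Il27, Il27ra and Il15 had no entry. The windows of Il12b (chr11:44399813-44400112, plus strand) and Ebi3 (chr17:55952373-55952672, plus strand) are shown because Il12b was called higher and Ebi3 was not called. Capitals mark matches to the kB motif.
Il12b: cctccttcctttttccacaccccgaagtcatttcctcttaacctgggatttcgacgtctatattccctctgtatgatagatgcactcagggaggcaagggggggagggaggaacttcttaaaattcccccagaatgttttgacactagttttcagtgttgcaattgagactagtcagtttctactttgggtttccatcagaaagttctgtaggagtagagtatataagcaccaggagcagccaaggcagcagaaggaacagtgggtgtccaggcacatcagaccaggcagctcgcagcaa
Ebi3: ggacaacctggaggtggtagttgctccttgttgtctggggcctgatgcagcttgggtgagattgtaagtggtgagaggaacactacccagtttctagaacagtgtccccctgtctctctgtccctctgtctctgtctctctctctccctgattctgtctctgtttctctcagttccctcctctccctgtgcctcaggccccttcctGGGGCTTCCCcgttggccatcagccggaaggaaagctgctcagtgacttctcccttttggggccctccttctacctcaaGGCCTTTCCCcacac
The motifs searched on both strands were GAS (TTC and GAA with 3 free bases between, bound by STAT dimers), ISRE (GAAA and GAAA with 2 free bases between, bound by interferon regulatory factors) and kB (GGGA and CC with 4 free bases between, bound by NF-kB), and 8.30%, 3.44% and 20.7% of all 32851 windows of this length held a match. Ebi3 held 2 kB matches, GGGGCTTCCC from position -44 and GGCCTTTCCC from position 35 relative to the start site, both on the minus strand, and no GAS or ISRE match. Il12b held no match to these letters in this window. A match is a string of letters and not a bound site.

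Among the receptor genes, Il12rb1 was the most changed of the 10. It was at 2.28, 4.30 and 2.65 CPM in ICI replicates 1, 2 and 3 and at 138, 150 and 115 CPM in isotype replicates 1, 2 and 3. The counts were 52, 102 and 57 against 4075, 3707 and 3524, so the 2 groups stood far apart in every library. The fall was 49.97-fold (log2 fold change -5.64, SE 0.24, edgeR adjusted p = 8.24e-07). None of its exon bases lay in an exon of another annotated gene.

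Il12rb2, the chain that pairs with Il12rb1 for IL-12, was at 5.18, 8.05 and 11.8 CPM in ICI replicates 1, 2 and 3 and at 19.6, 25.02 and 11.6 CPM in isotype replicates 1, 2 and 3. The groups overlapped at replicate 3, where the ICI library was slightly above the isotype library. Il12rb2 fell 2.60-fold (log2 fold change -1.38, SE 0.38, edgeR adjusted p = 0.0184). The call was lost without ICI replicate 2 (edgeR adjusted p = 0.0722), against a 1.5-fold change (0.0632) and with no filter (0.0724). In replicates 1 and 2 of each group only, the log2 fold change was -1.95 (edgeR adjusted p = 9.33e-05). Of its exon bases 40.0% also belong to exons of Serbp1, an RNA-binding protein gene. Serbp1 was 1.39-fold lower in the ICI libraries (105 ± 13.5 CPM against 127 ± 4.55 CPM, SD, n = 3 each). The part of Serbp1 reads in the Il12rb2 counts was not tested. The sum of the 7 NK cell markers went the other way from both Il12rb1 and Il12rb2, from 28.6 to 38.1 CPM in isotype libraries and from 75.8 to 118 CPM in ICI libraries, and all 7 were called higher. Il23r, the partner of the Il12rb1 chain for IL-23, had 7, 1 and 2 counts in ICI replicates 1, 2 and 3 and 3, 4 and 0 counts in isotype replicates 1, 2 and 3 and was not tested.

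Il27ra, the specific chain of the IL-27 receptor, rose while the ligand chain Il27 fell. Il27ra was at 7.50, 8.43 and 13.1 CPM in ICI replicates 1, 2 and 3 and at 2.40, 2.31 and 1.89 CPM in isotype replicates 1, 2 and 3. No library of one group reached the other, and the rise was 3.80-fold (log2 fold change 1.93, SE 0.23, edgeR adjusted p = 5.18e-05). B cell markers moved with it: the 5 summed to 196 to 671 CPM in ICI libraries and 3.89 to 8.72 CPM in isotype libraries (5 of 5 called higher), and their part in the result was not tested. The 7 T cell markers, whose cells the CD90.2 gate is meant to remove, summed to 23.0 to 35.6 CPM and 4.16 to 5.95 CPM, and most of the sum in ICI libraries came from Cd4 (9.66 to 19.2 CPM) and Lck (9.52 to 14.3 CPM). Of the T cell list, Cd4, Lck and Cd3g were called higher and Cd3e was not (log2 fold change 0.24, edgeR adjusted p = 0.695). Cd3d, Cd8a and Thy1 were too low to test, with Cd8a at 4 to 9 counts in ICI libraries and 4 to 22 counts in isotype libraries.

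Il15ra fell while its ligand gene Il15 rose. Il15ra was at 7.98, 12.5 and 7.66 CPM in ICI replicates 1, 2 and 3 and at 42.6, 52.6 and 31.4 CPM in isotype replicates 1, 2 and 3. The groups did not overlap, and the fall was 5.17-fold (log2 fold change -2.37, SE 0.27, edgeR adjusted p = 0.000240).

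The promoter windows of both receptor genes with an entry among those that fell, Il12rb2 (chr6:67376139-67376438, minus strand) and Il15ra (chr2:11705462-11705761, plus strand, the second of its 2 windows), are shown to set them beside those of the ligand genes. Capitals mark motif matches.
Il12rb2: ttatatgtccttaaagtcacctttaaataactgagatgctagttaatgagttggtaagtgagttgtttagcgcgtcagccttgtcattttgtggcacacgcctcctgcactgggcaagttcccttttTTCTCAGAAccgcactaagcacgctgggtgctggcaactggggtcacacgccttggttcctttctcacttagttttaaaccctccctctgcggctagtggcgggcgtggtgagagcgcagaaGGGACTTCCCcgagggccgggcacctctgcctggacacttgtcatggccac
Il15ra: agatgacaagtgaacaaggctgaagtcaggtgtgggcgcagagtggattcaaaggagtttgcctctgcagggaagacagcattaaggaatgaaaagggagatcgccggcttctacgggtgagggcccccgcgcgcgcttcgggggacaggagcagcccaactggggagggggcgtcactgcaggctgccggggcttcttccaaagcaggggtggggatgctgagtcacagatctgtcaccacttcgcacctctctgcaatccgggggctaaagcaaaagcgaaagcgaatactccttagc
Il12rb2 held a GAS match, TTCTCAGAA from position -123, and a kB match that reads the same motif on both strands, GGGACTTCCC from position -1, which do not overlap. Neither Il15ra window held a match to the 3 motifs, and no window of the 5 genes held an ISRE match. Of the 2 Il12a windows, the downstream one held 3 kB matches, of which 2 overlap on opposite strands.

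**Figure D2:**
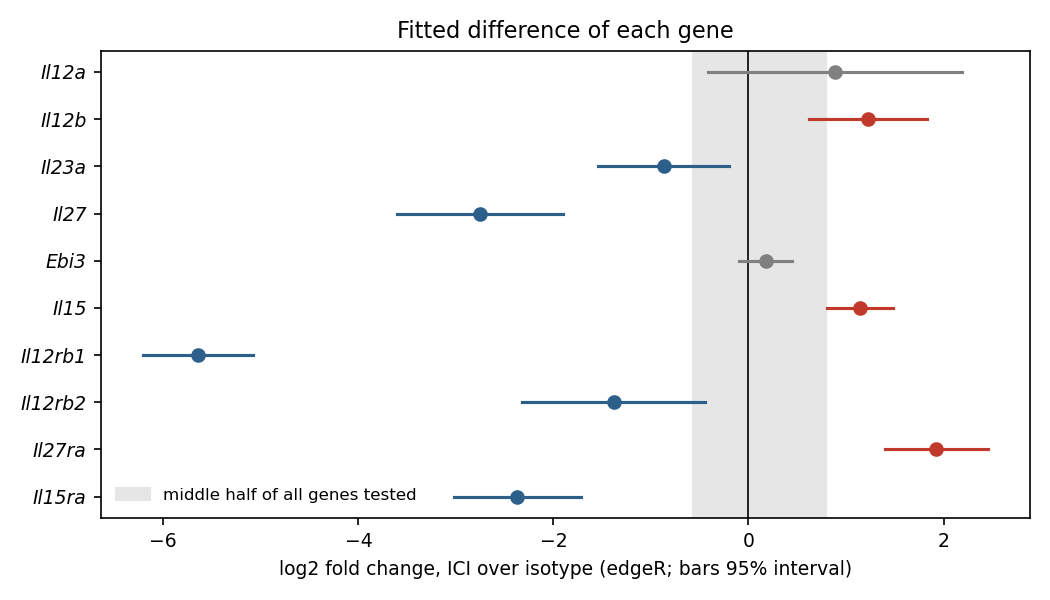
Log2 fold change of ICI over isotype with its 95% interval for each gene, from the edgeR fit. Red genes were called higher, blue lower and grey not called, and the grey band holds the range between the quartiles of all 14575 genes tested (-0.57 to 0.79). Il12rb1, at -5.64, lies furthest from 0.

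Levels of different genes were compared as CPM per kilobase of annotated exon sequence. In isotype libraries the order was Il12rb1 (32.7 ± 4.41 CPM per kilobase, SD, n = 3 here and below), Ebi3 (20.9 ± 2.58), Il27 (13.2 ± 2.56) and Il15ra (9.50 ± 2.39), followed by Il15 (4.96 ± 0.851), Il12rb2 (4.93 ± 1.78), Il12b (1.59 ± 0.556), Il23a (0.794 ± 0.120), Il27ra (0.630 ± 0.0788) and Il12a (0.248 ± 0.163). Neighbours in that order overlapped between libraries for Il27 and Il15ra, for Il15 and Il12rb2, and for Il23a and Il27ra. In ICI libraries Ebi3 led at 27.1 ± 2.34 CPM per kilobase, followed by Il15 at 12.6 ± 1.68 and Il12b at 4.29 ± 1.16. Il27ra (2.77 ± 0.866), Il27 (2.23 ± 1.08), Il12rb2 (2.20 ± 0.875) and Il15ra (2.11 ± 0.606) came next and overlapped with their neighbours, as Il12b did with Il27ra. Il12rb1 (0.750 ± 0.262), Il12a (0.522 ± 0.286) and Il23a (0.5002 ± 0.125) were lowest and overlapped too. Il12rb1 thus stood in place 1 of 10 in isotype libraries and place 8 in ICI libraries, while Ebi3 held place 2 and place 1. Exon lengths pool all annotated transcripts (18 for Il15ra and 10 for Il15), so levels of genes with many transcripts may be understated.

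**Figure D3:**
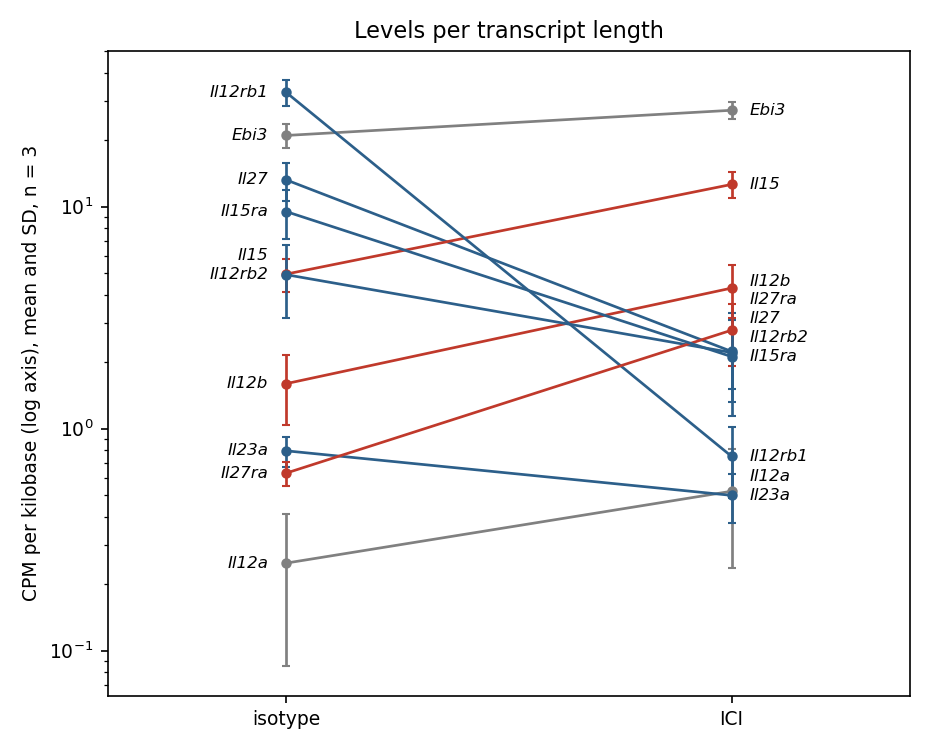
Mean level per transcript length in each group, in CPM per kilobase on a log axis, with the SD of 3 libraries. Lines join the 2 group means of a gene and are red where it was called higher in ICI libraries, blue where lower and grey where not called. The line of Il12rb1 falls from 32.7 to 0.750 and crosses those of every other gene but Il12a and Il23a.

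Ratios of partner genes within a library do not depend on the scaling between libraries. Between the groups 8 pairs were compared, with the log2 ratio of counts (0.5 added to each) and an exact two-sided permutation test, for which 0.1 is the smallest p that 3 against 3 libraries allow and 0.133 the value adjusted over the 8 pairs. In ICI replicates 1, 2 and 3 there were 13.6, 9.49 and 26.4 Ebi3 counts per Il27 count, and in isotype replicates 1, 2 and 3 there were 1.89, 1.32 and 2.35. The log2 ratio was 3.91 ± 0.75 against 0.85 ± 0.42 (SD, n = 3 each), a difference of 3.06 with no overlap (exact permutation p = 0.1). Per kilobase the Ebi3 level was 8.40 to 23.4 times the Il27 level in ICI libraries and 1.17 to 2.08 times in isotype libraries. In CPM, Ebi3 and Il27 each separated the groups, in opposite directions, so their ratio had to separate them too. The same holds for Il15 with Il15ra, Il2rb with Il15ra and Il12b with Il23a. For Il12rb1 with Il12rb2 and Il27ra with Il6st, the single-gene CPM ranges force the separation as well. The highest Il12rb1 and lowest Il12rb2 values were 4.30 and 5.18 CPM in ICI libraries. In isotype libraries the lowest Il12rb1 and highest Il12rb2 values were 115 and 25.02 CPM. The lowest Il27ra and highest Il6st values were 7.50 and 146 CPM in ICI libraries. In isotype libraries the highest Il27ra and lowest Il6st values were 2.40 and 63.7 CPM. The missing overlap of these ratios, and its exact permutation p of 0.1, therefore repeat the single-gene values.

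The Il15 and Il15ra genes changed places. Il15 had 3.72, 2.51 and 3.15 counts per Il15ra count in ICI replicates 1, 2 and 3 and 0.270, 0.174 and 0.414 in isotype replicates 1, 2 and 3. Per kilobase the ratio was 4.94 to 7.32 in ICI libraries and 0.343 to 0.814 in isotype libraries, so Il15 was above Il15ra in every ICI library and below it in every isotype library. The difference of the log2 ratios was 3.52 (exact permutation p = 0.1). Il2rb, the signalling chain on cells that receive IL-15, likewise stood above Il15ra in ICI libraries (4.76 to 10.9 counts per count) and below it in isotype libraries (0.399 to 0.513), a log2 difference of 3.87 (exact permutation p = 0.1).

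The counts of the IL-12 receptor chains changed places in the same way. As given above, 40.0% of the Il12rb2 exon bases also belong to Serbp1, and the part of Serbp1 reads in this ratio was not tested. Il12rb1 had 0.443, 0.535 and 0.226 counts per Il12rb2 count in ICI replicates 1, 2 and 3 and 7.04, 6.004 and 9.89 in isotype replicates 1, 2 and 3, a log2 difference of -4.31 (exact permutation p = 0.1). Il12b counts per Il23a count were 5.10, 13.5 and 5.87 in ICI libraries and 1.26, 1.33 and 2.91 in isotype libraries (log2 difference 2.12, exact permutation p = 0.1). Il27ra per Il6st differed by 1.105 on the log2 scale, also without overlap (exact permutation p = 0.1). The pairs with Il12a overlapped between the groups: the log2 ratio of Il12b to Il12a was 3.37 ± 0.85 against 2.99 ± 1.34 (SD, n = 3 each, exact permutation p = 0.8), and that of Ebi3 to Il12a 5.29 ± 1.09 against 5.97 ± 1.07 (exact permutation p = 0.5).

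**Figure D4:**
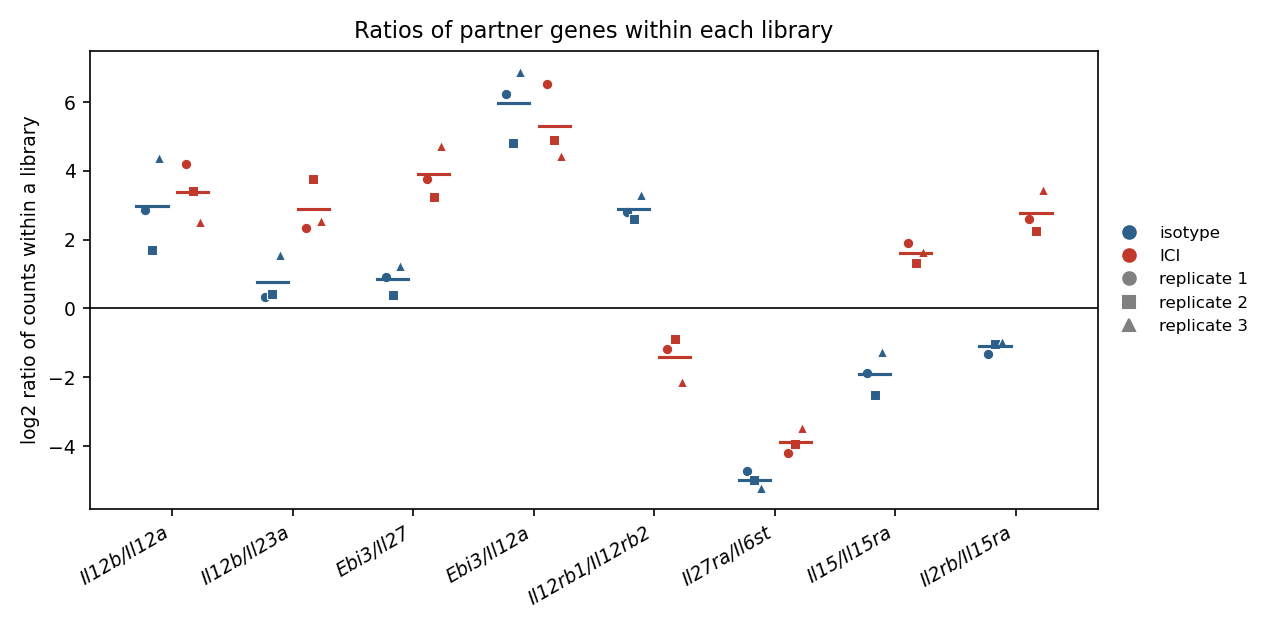
Log2 ratio of the counts of 2 partner genes within each library, with 0.5 counts added to each gene. Blue marks isotype and red ICI, the marker shape gives the replicate and the bar the mean of 3 libraries. Of 8 pairs, 6 separate the groups, and both pairs with Il12a overlap. For all 6 the separation follows from the CPM ranges of the single genes.

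The other receptor chains, Janus kinases and STAT factors of these cytokines formed a list of 12 genes, of which 11 were tested. Of these 5 were called higher (34.7% over all genes tested) and 5 lower (33.7%), and the median log2 fold change was 0.016. The receptor chains went apart. Il2rb was at 48.1, 59.5 and 83.6 CPM in ICI replicates 1, 2 and 3 and at 16.99, 25.8 and 16.1 CPM in isotype replicates 1, 2 and 3, with no overlap, and rose 2.81-fold (edgeR adjusted p = 0.00184). Il2rg, the common gamma chain, fell 3.90-fold, from 723 ± 45.7 CPM in isotype libraries to 214 ± 20.3 CPM in ICI libraries (SD, n = 3 each, edgeR adjusted p = 2.73e-07). Il6st, which encodes gp130, rose 1.73-fold (138 ± 8.94 CPM against 69.5 ± 5.32 CPM, edgeR adjusted p = 2.5e-05).

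Of the kinases, Jak1 rose 1.38-fold, while Jak2, Tyk2 and Jak3 fell 1.46-fold, 1.70-fold and 2.08-fold (edgeR adjusted p from 9.41e-06 to 0.000785 for these 4 genes). Tyk2 and Jak2 serve the IL-12 receptor, and Jak1 and Jak3 the chains that receive IL-15. Stat4, the main STAT of IL-12 signalling, rose 6.46-fold: it was at 11.8, 14.7 and 22.5 CPM in ICI replicates 1, 2 and 3 and at 1.79, 2.15 and 2.60 CPM in isotype replicates 1, 2 and 3 (edgeR adjusted p = 9.89e-06). Every ICI library was above every isotype library, and the sums of the NK and B cell markers given above were as well, whose part in the result was not tested. Stat3 fell 1.23-fold with overlapping groups (edgeR adjusted p = 0.0264), and that call was lost in 8 alternatives, among them upper-quartile factors (0.331), library totals alone (0.382) and the fits without ICI replicate 1 (0.0584), ICI replicate 3 (0.111), isotype replicate 1 (0.0670) or isotype replicate 2 (0.0861). Of the STAT5 genes, which carry the IL-15 signal, Stat5b rose 1.26-fold (edgeR adjusted p = 0.00320) and Stat5a was not called (log2 fold change 0.016, 95% interval -0.19 to 0.22, edgeR adjusted p = 0.889), but was higher with library totals alone (log2 fold change 0.22, adjusted p = 0.0483).

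Transcription factors with a textbook role at the ligand genes split evenly: of 16 tested, 7 were called higher (34.7% over all genes tested), 7 lower (33.7%) and 2 not, with a median log2 fold change of -0.00036 beside 0.031 over all genes tested. Among those that rose were Atf3, which represses Il12b in macrophages (2.53-fold, edgeR adjusted p = 1.23e-06), the NF-kB subunit Rel, which activates Il12b and Il23a (2.76-fold, 3.64e-06), Maf, which represses the IL-12 genes (3.11-fold, 4.53e-06), and Irf9 (1.81-fold, 6.30e-06). Among those that fell were Irf8, which activates Il12b and Il27 (2.19-fold, edgeR adjusted p = 1.22e-05), Irf5 (1.92-fold, 3.78e-05), Cebpb (1.58-fold, 0.000109) and Irf7 (2.31-fold, 0.000901). Nfkb1 and Irf3 were not called, with log2 fold changes of 0.14 (95% interval -0.024 to 0.31) and -0.14 (95% interval -0.36 to 0.073). Nfkb1 was called higher with upper-quartile factors (0.32), library totals alone (0.35) and the strict filter (0.23) and lower with the transcript length trend removed (-0.19), and Irf3 turned from negative to 0.038 and 0.059 under the first 2 of these, without a call.

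Genes on which these cytokines act numbered 17, of which 14 were tested. Of these 10 were called higher (34.7% over all genes tested), 2 lower (33.7%) and 2 not, and the median log2 fold change was 1.02 beside 0.031 over all genes tested. The cytotoxic genes Prf1, which encodes perforin, and Gzma, a granzyme, rose 2.76-fold and 2.11-fold (edgeR adjusted p = 3.9e-05 and 0.000116), the chemokine gene Xcl1 of NK and T cells 4.27-fold (0.000251) and the survival gene Bcl2 1.96-fold (5.71e-05). The NK cell markers, which share Prf1, Gzma and Eomes with this list, were higher in the same libraries, and their part in these rises was not tested. The feedback inhibitors of cytokine signalling Cish and Socs1 fell 1.90-fold and 3.05-fold (edgeR adjusted p = 7.92e-05 and 0.000624). Socs3, another feedback inhibitor on the list, which is named here after its value was seen, went the other way and rose 1.46-fold (edgeR adjusted p = 0.0108). Gzmb and Il18rap were not called, with log2 fold changes of 0.53 (95% interval -0.06 to 1.12) and -0.24 (95% interval -0.98 to 0.50). Gzmb was called higher in 7 alternatives, and Il18rap lower (-0.66, edgeR adjusted p = 0.0199) in replicates 1 and 2 of each group only. The IL-23 target genes Il17a, Il17f and Il22 were too low to test, with at most 4 counts in any library.

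**Figure D5:**
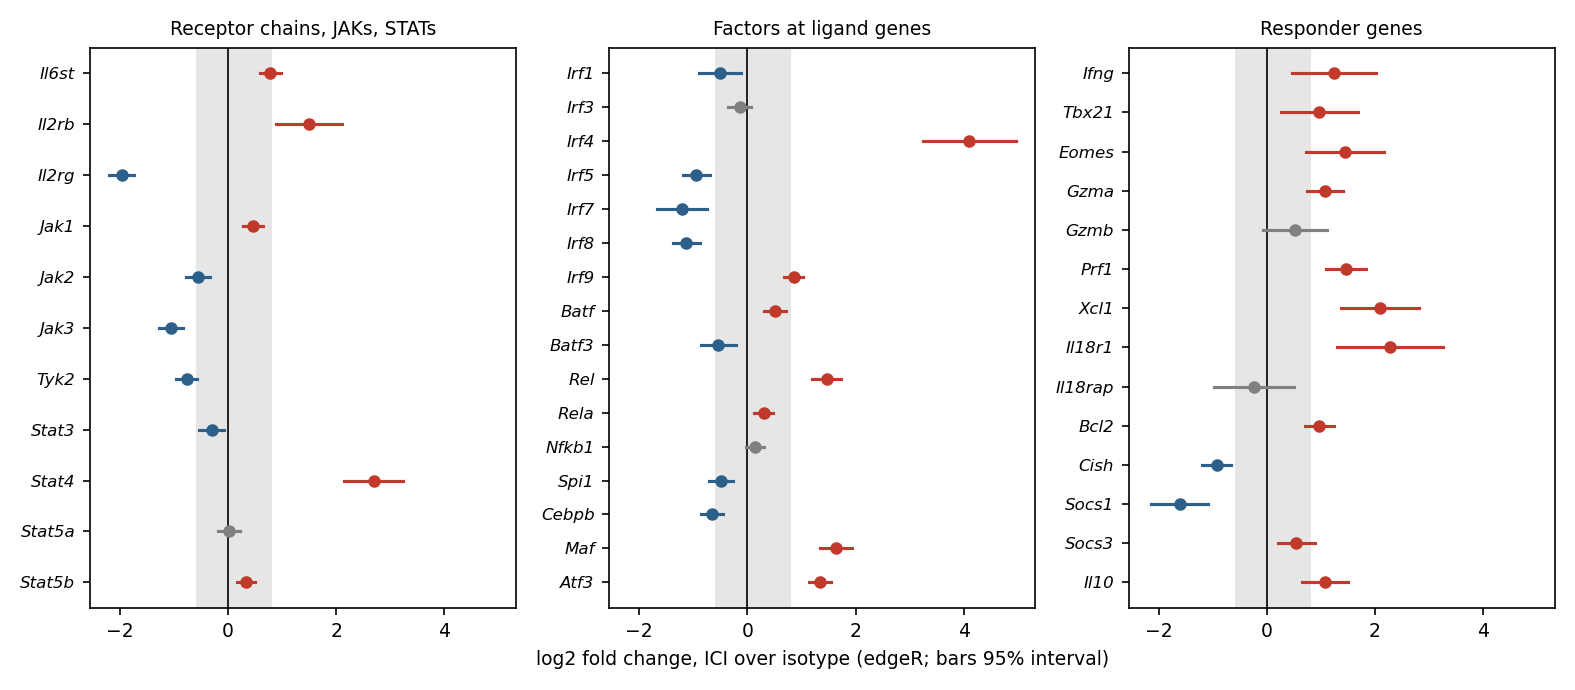
Log2 fold change of ICI over isotype with its 95% interval, from the edgeR fit, for the tested genes of 3 lists: other receptor chains, kinases and STATs (11 genes), transcription factors at the ligand genes (16 genes) and responder genes (14 genes). Red genes were called higher, blue lower and grey not called, and the grey band spans the quartiles of all genes tested. Stat4 lies highest in the first panel at 2.69, and Il2rg lies lowest at -1.96.

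Markers of the myeloid cells that make these ligands moved between the groups too. The 5 conventional dendritic cell markers, all called higher, summed to 285 to 370 CPM in ICI libraries and 41.7 to 65.9 CPM in isotype libraries. Cd209a (121 to 180 CPM, log2 fold change 10.75) and Clec10a (67.4 to 101 CPM, 2.20) made up most of the sum in ICI libraries. Flt3, Zbtb46 and Dpp4 rose less (2.06, 1.92 and 0.78). The 5 markers of mature dendritic cells, which make IL-12 and IL-15, summed to 143 to 290 CPM and 38.8 to 66.5 CPM, with 4 called higher. Most of that sum in ICI libraries was Ccr7, at 100, 122 and 242 CPM in ICI replicates 1, 2 and 3 (log2 fold change 2.41). All 5 B cell markers were also highest in ICI replicate 3 among the ICI libraries, and the part of B cells in the Ccr7 rise was not tested. Fscn1, Ccl22 and Il4i1 rose less (1.00, 0.99 and 1.00), and Cacnb3 was not called (-0.51). The 5 markers of type 1 dendritic cells summed to 126 to 147 CPM and 68.6 to 127 CPM, with 1 called higher and 1 lower. Resident macrophage markers summed to 2264 to 2531 CPM in ICI libraries and 9.17 to 17.1 CPM in isotype libraries, with 5 of 5 called higher. General macrophage and monocyte markers summed to 19492 to 22976 CPM and 15961 to 17749 CPM, with 2 of 7 called higher and 4 lower. Most of that sum was Lyz2, which was not called (log2 fold change 0.11, edgeR adjusted p = 0.423), and the members went apart. Ly6c2, a marker of inflammatory monocytes, was at 90.21 to 178 CPM in ICI libraries and 739 to 1169 CPM in isotype libraries and fell (log2 fold change -3.22, edgeR adjusted p = 0.000393), as did Fcgr1 (-1.55), Ccr2 (-1.02) and Cd68 (-0.43). Csf1r (0.92) and Adgre1 (0.66) rose. Of cells outside the gate, cardiomyocyte markers summed to 26.7 to 35.3 CPM in ICI libraries against 4.42 to 10.7 CPM (5 of 5 called higher). Fibroblast sums were 56.7 to 183 CPM against 10.53 to 13.9 CPM (4 of 5), and erythroid sums 19.3 to 38.8 CPM against 0.325 to 2.56 CPM (4 of 4 tested). Endothelial sums overlapped, at 24.6 to 38.4 CPM against 18.2 to 25.4 CPM. Of that list 4 of 5 were called higher and Pecam1 was not (log2 fold change -0.12, edgeR adjusted p = 0.652). The part of these cell types in the differences of Il12b, Il15, Il27, Il15ra and Il12rb1 was not tested.

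For 6 of the genes, the 3 genes with the most similar profile were sought among 8434 genes whose mean level reached 10 CPM, by the root-mean-square difference of mean-centred log2(CPM + 1) values over the 6 libraries. With 3 libraries on each side of a wide difference, such likeness mostly repeats the size of the group difference. The nearest to Il12rb1 were Ly6a (difference 0.151), Serpina3g (0.187) and AA467197 (0.323), and the nearest to Il27 were Ifi205 (0.114), Slfn1 (0.157) and Psme2 (0.161), a subunit gene of the proteasome activator. Il15ra was nearest to Rhov (0.0982), Bst1 (0.137) and Gpr141 (0.156). Among genes that were higher in ICI libraries, Il12b was nearest to Calcrl (0.130), Trim59 (0.145) and Ccl22 (0.161), a chemokine of mature dendritic cells, and Il15 to H1f0 (0.109), Krt80 (0.110) and Ccl3 (0.129). Ebi3 was nearest to Leprot (0.0452), Ascc1 (0.0593) and Sumf2 (0.0624).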

How the data were processed

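For 6 libraries the authors deposited raw counts in 1 table, by Ensembl gene and with no normalization. Per the labels' protocols, non-directional SMART-seq V4 libraries from total RNA were sequenced as read pairs. Salmon 1.10.1, STAR 2.7.10a and the build GRCm39 are listed, per the submitters' processing notes, without their roles. Annotation and counting settings were not given in the sources used here. Symbols matched 91.3% of 57010 identifiers. Exon lengths and overlaps came from GENCODE M21 (GRCm38).

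The deposited counts were tested with the edgeR 4.0.16 quasi-likelihood F test in R 4.3.3 (TMM factors, robust fit, filterByExpr with a minimum count of 10), and genes were called at an adjusted p under 0.05. CPM values use library totals, so their ratio can differ from a fitted fold. Standard errors are the absolute log2 fold change over the square root of F. The script was tested on data simulated from these libraries' means, with few genes changed and as many up as down. Such data cannot test the choice of scaling where most genes are called. DESeq2 1.42.0, limma-voom (limma 3.58.1), other scalings and filters, a replicate block, left-out libraries and a length correction (lowess span 0.3) were alternatives. Replicates of a group differed by more than sampling noise. The labels call them biological replicates, without naming animals.

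The genes and lists were chosen with earlier results of these data known. Named genes were the 10 genes, the receptor, kinase and STAT list, up to 4 called genes per direction and the uncalled ones of the other 2 lists, and nearest profiles. Genes overlapping the 10 and single marker genes were named after their values were seen. From 3 of the lists 1 gene each is not reported here and is left out of the counts.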

Additional observations from a re-analysis of the deposited data

How the results depend on the processing

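Across 17 alternative fits, the 10 genes gave 168 values, of which 156 kept their direction and their side of the threshold, 9 lost a call (Il12rb2 and Il23a), 3 gained one (Ebi3) and 0 changed sign; Il12a and Il23a were not in the fit with the strict filter. Il12b, Il15, Il27ra, Il12rb1, Il15ra and Il27 kept their calls in every fit. Against a 1.5-fold change, which is stricter by construction, 3 of the 10 genes were called lower, 3 receptor, kinase and STAT genes higher and 3 lower, 3 transcription factors lower, and 3079 and 2384 of all genes higher and lower. With 1 library left out, the count of the 10 genes called lower ranged from 3 to 5, with 3 without ICI replicate 2.

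Changes of sign concerned values not called in the fit reported. The log2 fold change of Stat5a was -0.0099 with no filter, -0.021 in replicates 1 and 2 of each group only, -0.17 with the length trend removed and -0.056 to 0.060 with 1 library left out. Nfkb1 was at -0.19 with the length trend removed (edgeR adjusted p = 0.0405), Irf3 at 0.038 with upper-quartile factors and 0.059 with library totals alone, and Il18rap at -0.50 to 0.082 with 1 library left out. The difference of the log2 ratio of Il12b to Il12a ranged from -0.25 to 1.09 with 1 library left out. The cause of these changes was not tested.

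The labels do not say that a replicate number marks a shared source, although both replicate 3 libraries carried Xist. Deviations of same-numbered libraries correlated at 0.034, 0.062 and 0.13 across 14575 genes and those of other pairs at -0.14 to 0.090, so the numbers were not taken to pair the samples. With a replicate block, 3 of the 10 genes were called higher and 5 lower, as without it. The all-gene median log2 fold change was 0.21 with upper-quartile factors and 0.23 with library totals alone. Counts were low for Il12a and Il23a, with at most 60 in any library.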
